A study of Mus musculus with 10 samples.

Results

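The genes that copy DNA and the genes that divide the chromosomes were followed in mouse main olfactory epithelium (MOE), where odours are sensed. The list held 46 genes, 21 of DNA replication (the Mcm, Pcna, Rrm and Tyms group) and 25 of mitosis (cyclins, Cdc genes, kinesins and kinetochore genes), and a gene was taken as measured where a probe set of the array carried its symbol alone. On these terms 45 of the 46 genes were measured, on 47 of the 35556 probe sets, out of 19938 genes with such a probe set. All 21 replication genes and 24 mitosis genes were covered, and Ccnb1, which codes for cyclin B1, was the gene without one.

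The arrays (Affymetrix Mouse Gene 1.0 ST, which read transcripts along their whole length) came from whole MOE of 5-week old mice. Of the 10 arrays, 4 were H2be-GF and 6 were wild type (WT). H2be-GF mice carry an Omp:Flag-H2be transgene, in which the promoter of Omp, a gene of mature olfactory neurons, drives a FLAG-tagged copy of the histone variant H2BE. The mice come from one founder line crossed to C57Bl/6, and the transgene is silent in a band of mature neurons near zone 2. The Omp promoter is active in mature neurons, which no longer divide. WT arrays carry no transgene. The RNA of an array was a pool of mice, larger for H2be-GF than for WT. The series describes males and females mixed equally, but Xist, given below, split the arrays, so this mix did not hold within each pool. The labels do not give the animals of a pool, so p-values measure the spread between pools.

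Olfactory neurons are short-lived and are replaced throughout life from globose basal cells, which divide at the base of the epithelium, while horizontal basal cells form a largely quiescent reserve. In a dividing cell the replication genes come on as the cell enters S phase, when E2F factors are released from the retinoblastoma proteins. The mitosis genes follow in G2 and M, under the MuvB complex together with B-Myb and Foxm1. A whole-tissue array sees these transcripts diluted among those of non-dividing neurons and supporting cells. In such tissue fewer dividing cells and less RNA per dividing cell cannot be told apart. The comparison bears on the turnover of olfactory neurons, read here through the transcripts of the cells that divide to replace them. The paper measured turnover directly in H2be-GF mice. It reported more apoptosis of mature neurons and poorer survival of neurons labelled by BrdU injection. It also reported more labelled neurons at the start of that time course, read as a raised rate of neurogenesis. The apoptosis and neurogenesis counts came from mice older than those of the arrays. The BrdU controls were Flag-H2be mice, which express tagged H2BE from the H2be promoter, not WT. The arrays do not test those findings.

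Motifs linked to the control of each phase stand in some of the promoters, and a few promoters are shown because they carry them. Windows of 300 bases, from 250 bases before to 50 bases after the annotated start, were read from RefSeq (assembly GRCm38.p6), which held 38 windows for 36 of the 46 genes. Mcm3 and Mcm6 code for subunits of the replicative helicase, and capitals in their windows mark the E2F motif (TTTCCCGC, TTTCGCGC, TTTGCCGC or TTTGGCGC, on either strand). The Mcm3 window is chr1:20820263-20820562 and the Mcm6 window is chr1:128359656-128359955, both on the minus strand. The first capital run of Mcm6 holds overlapping matches on opposite strands.
Mcm3: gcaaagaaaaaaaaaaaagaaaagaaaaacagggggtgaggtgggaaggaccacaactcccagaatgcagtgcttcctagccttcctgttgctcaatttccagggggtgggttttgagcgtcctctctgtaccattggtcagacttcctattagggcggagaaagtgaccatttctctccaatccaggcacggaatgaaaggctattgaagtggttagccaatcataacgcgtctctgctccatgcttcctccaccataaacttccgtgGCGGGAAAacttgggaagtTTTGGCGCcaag
Mcm6: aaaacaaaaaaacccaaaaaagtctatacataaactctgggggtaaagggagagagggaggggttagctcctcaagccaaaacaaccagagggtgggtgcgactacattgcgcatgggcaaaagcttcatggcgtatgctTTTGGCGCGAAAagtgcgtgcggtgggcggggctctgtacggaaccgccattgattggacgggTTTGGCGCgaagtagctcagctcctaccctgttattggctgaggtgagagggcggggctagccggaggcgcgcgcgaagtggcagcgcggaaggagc

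Top2a, which untangles replicated chromosomes, and Mki67, which coats chromosomes in mitosis, are given for the cell cycle genes homology region (CHR), the letters TTTGAA or TTCGAA on either strand, in capitals. Cdk1, the kinase that drives entry into mitosis, held both motifs, with its E2F match first and the CHR matches nearer the start. The windows are chr11:99024140-99024439 for Top2a, chr7:135716330-135716629 for Mki67 and chr10:69352863-69353162 for Cdk1, all on the minus strand.
Top2a: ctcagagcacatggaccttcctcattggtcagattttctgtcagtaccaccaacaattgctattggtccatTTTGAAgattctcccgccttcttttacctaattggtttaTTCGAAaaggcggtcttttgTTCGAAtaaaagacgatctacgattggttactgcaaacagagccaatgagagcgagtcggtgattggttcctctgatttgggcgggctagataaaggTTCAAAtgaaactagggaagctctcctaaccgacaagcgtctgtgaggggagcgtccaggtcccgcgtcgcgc
Mki67: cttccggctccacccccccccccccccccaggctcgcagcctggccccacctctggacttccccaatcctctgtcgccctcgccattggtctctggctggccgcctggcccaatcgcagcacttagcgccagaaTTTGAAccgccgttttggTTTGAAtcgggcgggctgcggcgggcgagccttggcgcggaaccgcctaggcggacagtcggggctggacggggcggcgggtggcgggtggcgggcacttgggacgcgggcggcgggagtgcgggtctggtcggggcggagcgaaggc
Cdk1: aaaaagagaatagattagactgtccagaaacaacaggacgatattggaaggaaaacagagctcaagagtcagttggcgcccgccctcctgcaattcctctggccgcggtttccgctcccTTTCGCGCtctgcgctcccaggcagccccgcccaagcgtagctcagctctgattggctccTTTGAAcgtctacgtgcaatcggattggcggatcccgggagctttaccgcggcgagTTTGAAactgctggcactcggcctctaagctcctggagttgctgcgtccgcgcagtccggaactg

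The motifs differed by phase. An E2F match stood in 5 of 18 replication windows (27.8%) and in 1 of 20 mitosis windows (5%), that of Cdk1, beside 2.26% of the 32851 windows of the whole table. The replication genes with a match were Cdc6, Mcm3, Mcm5, Mcm6 and Mcm7. A CHR match stood in 15 of 20 mitosis windows (75%), in 4 of 18 replication windows (22.2%) and in 19.2% of all windows. The CCAAT box, letters CCAAT on either strand, was common in both phases, at 11 of 18 replication windows (61.1%) and 17 of 20 mitosis windows (85%), beside 37.4% of all. No motif of the 3 contains another, and TTCGAA reads the same on both strands. Within the 150 bases from 100 before to 50 after the start, all 15 mitosis windows with a CHR match kept one, and 3 of the 5 replication windows kept an E2F match. A match is a description of the sequence, and these shares are not tested.

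**Figure D1:**
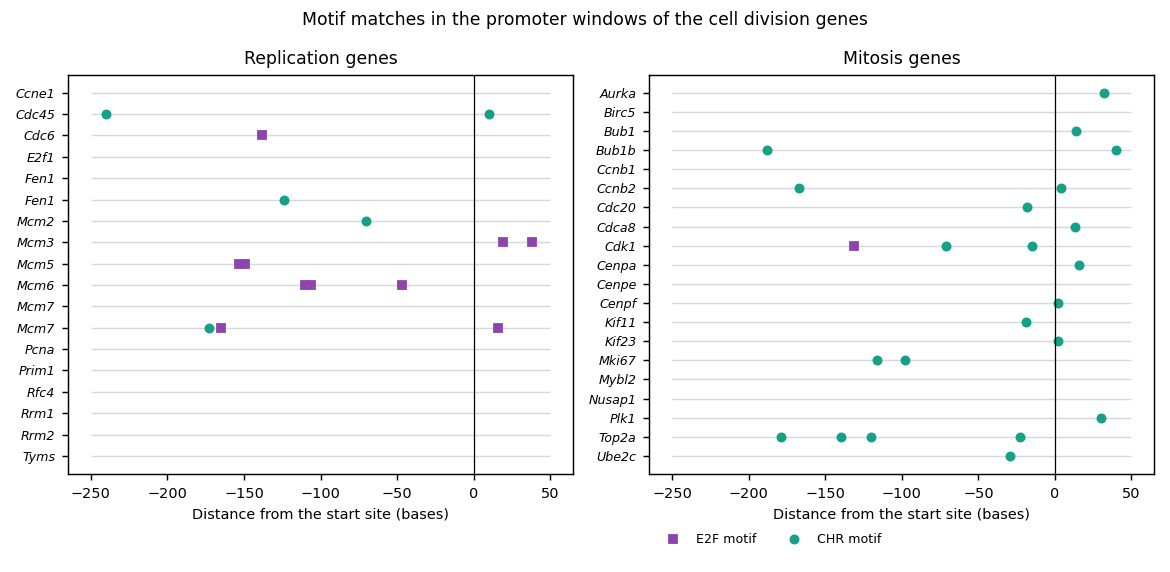
Position of each E2F match (squares) and CHR match (circles) in the promoter windows of replication genes (left) and mitosis genes (right), as distance from the start site in bases, with 1 line per window. In the mitosis panel 15 of 20 windows hold a CHR match, most of them close to the start, and in the replication panel 5 of 18 hold an E2F match.

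Array medians lay between 7.74 and 7.91 (log2 signal), and the 10 arrays correlated pairwise at 0.969 to 0.988. The gene of H2BE itself (Hist2h2be, H2bc21 in the annotation, probe set 10494388) averaged 12.07 ± 0.05 over the WT arrays (SD, n = 6) and 11.84 ± 0.07 over the H2be-GF arrays (SD, n = 4; limma adjusted p = 0.297). It was thus not higher in the arrays labelled H2be-GF. Whether its probes read the coding sequence that the transgene carries is not known here, so it does not check the labels. Xist, which is expressed from the inactive X chromosome, divided the arrays into 5 at 11.69 or above (H2be-GF 1 and 2, WT 1, 2 and 3) and 5 at 4.61 or below (H2be-GF 3 and 4, WT 4, 5 and 6). An equal mix of males and females in every pool would not give such sets. Both sets hold the genotypes in the same proportion, and the phase medians are also given within them.

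No cell division gene passed the test. Of all 23194 probe sets tested, 20 were called at a limma adjusted p under 0.05 (0.0862%), and 0 of the 45 cell division genes were among them. The smallest adjusted p of a cell division gene was 0.503, for Gins2. At an unadjusted p under 0.05 there was 1 gene higher in H2be-GF, Gins2 of the replication helicase, beside 4.35% of all probe sets. There were 2 genes lower, Mcm7 of the same helicase and Foxm1, a transcription factor of the mitosis genes, beside 4.07% of all. In 0 of the 45 genes did every H2be-GF array lie above every WT array, beside 1.29% of all probe sets, and in 0 did every H2be-GF array lie below, beside 1.6% of all.

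The changes were small on both sides. For 42 of the 45 genes the change was within 0.2 on the log2 scale in either direction, and the changes ran from -0.17 to 0.22 over the replication genes and from -0.23 to 0.09 over the mitosis genes. The 95% intervals hold for each gene on its own. They make no allowance for the number of genes, so their extremes are no joint bound. The highest upper bound was 0.42 (log2) for E2f1, a difference of 33.8% from WT, and the lowest lower bound was -0.48 for Cdca8, a difference of -28.3%. No interval of a cell division gene reached 0.5 in either direction. The median standard error was 0.098.

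More of the genes lay below 0 than above it. The change was below 0 for 33 of the 45 genes (73.3%), made up of 14 of 21 replication genes (66.7%) and 19 of 24 mitosis genes (79.2%), beside 47.4% of all probe sets tested. The median change was -0.065 for the replication genes and -0.064 for the mitosis genes, beside 0.0079 over all probe sets and 0.0074 over the 17801 probe sets in the same range of level. Genes of one cell type move together from pool to pool, so these counts are no independent trials.

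**Figure D2:**
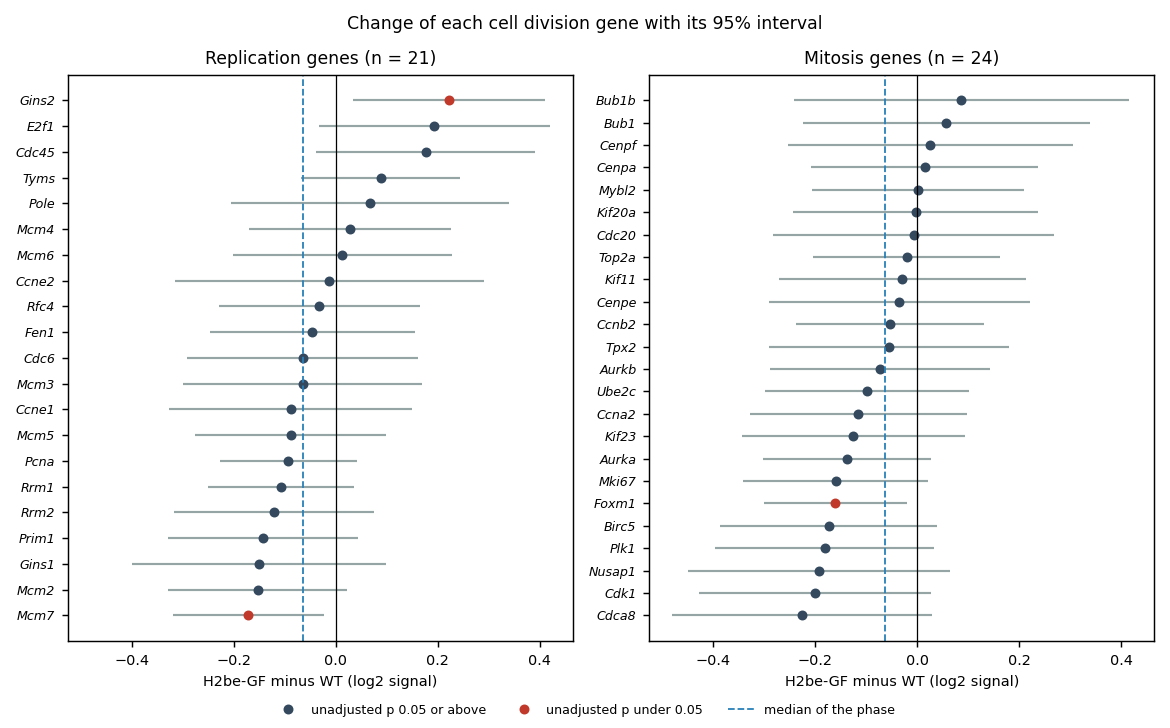
Change of each measured cell division gene (H2be-GF minus WT, log2 signal) with its 95% interval from limma, for 21 replication genes (left) and 24 mitosis genes (right). Red points have an unadjusted p under 0.05 (Gins2, Mcm7 and Foxm1), the dashed line is the median of the phase, -0.065 and -0.064, and no interval reaches 0.5.

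Among the replication genes, those of origin licensing and the helicase came first. Mcm2 to Mcm7 form the ring that unwinds DNA, Cdc6 loads it on origins, and Cdc45 with the GINS proteins (Gins1, Gins2) turns it on. Gins2 was at 7.64, 7.30, 7.60 and 7.69 (log2 signal) on H2be-GF arrays 1 to 4, and WT arrays ran from 7.20 through a median of 7.35 to 7.46. On 3 of the 4 H2be-GF arrays Gins2 was above every WT array, and H2be-GF 2 lay within the WT range. The means were 7.55 ± 0.17 (SD, n = 4) and 7.33 ± 0.10 (SD, n = 6), a change of 0.22 (95% interval 0.03 to 0.41), and limma gave an unadjusted p of 0.0253.

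Mcm7 stood on the other side of 0. It was at 8.89, 8.84, 8.75 and 8.79 on the H2be-GF arrays, and WT ran from 8.88 through 8.96 to 9.14. Only H2be-GF 1 reached the WT range, by a small margin over WT 2. The change was -0.17 (95% interval -0.32 to -0.02), from 8.99 ± 0.10 (SD, n = 6) to 8.82 ± 0.06 (SD, n = 4), and limma gave an adjusted p of 0.510.

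Mcm2, a widely used marker of cells licensed to replicate, was at 8.14, 8.13, 8.40 and 8.25 on the H2be-GF arrays against 8.26 through 8.39 to 8.49 in WT. H2be-GF 1, 2 and 4 were below all WT arrays and H2be-GF 3 was among them. Its change was -0.15 (95% interval -0.33 to 0.02, limma adjusted p = 0.648). Cdc45 was at 8.55, 8.37, 8.44 and 8.33 against 8.04 through 8.26 to 8.47, a change of 0.18 (limma adjusted p = 0.672), with the genotypes overlapping. The other helicase and licensing genes had changes between -0.15 (Gins1) and 0.03 (Mcm4), with Mcm5 at -0.09, Mcm3 at -0.07, Cdc6 at -0.06 and Mcm6 at 0.01. The changes of the ring subunits thus ran from -0.17 to 0.03, and over all 10 genes of this role the median change was -0.065.

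At the fork, Pcna, the sliding clamp that holds the polymerases on DNA, was at 11.05, 10.93, 10.89 and 10.97 in H2be-GF against 10.97 through 11.05 to 11.15 in WT. It was the replication gene with the smallest spread within a genotype, an SD of 0.070. Its change was -0.09 (95% interval -0.23 to 0.04, limma adjusted p = 0.714), a difference of -6.24% from WT. H2be-GF 1 lay at the WT median, and H2be-GF 2, 3 and 4 were below all WT arrays, H2be-GF 4 narrowly. A second Pcna probe set (10461391) had a change of -0.09 (limma adjusted p = 0.728), but whether it reads this gene or a copy of it is not known here.

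Prim1, the primase subunit that starts each new strand, was at 8.59, 8.43, 8.48 and 8.40 against 8.43 through 8.68 to 8.74, a change of -0.14 (limma adjusted p = 0.682). H2be-GF 4 alone was below all WT arrays. Fen1, which trims the lagging strand, changed by -0.05, Rfc4 of the clamp loader by -0.03, and Pole, the catalytic subunit of the leading-strand polymerase, by 0.07. None of these 5 passed the test, and their median was -0.046.

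Nucleotide supply gave the same picture. Rrm1, the large subunit of ribonucleotide reductase, was at 9.59, 9.59, 9.62 and 9.72 in H2be-GF against 9.65 through 9.71 to 9.85 in WT, so that H2be-GF 1, 2 and 3 were below all WT arrays and H2be-GF 4 was not. The change was -0.11 (95% interval -0.25 to 0.03, limma adjusted p = 0.687). Rrm2, the small subunit that is made in S phase, changed by -0.12. Tyms, which makes thymidylate, was at 8.39, 8.24, 8.39 and 8.34 against 8.16 through 8.20 to 8.41, a change of 0.09 (limma adjusted p = 0.772) with every H2be-GF array inside the WT range.

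Of the genes of S phase entry, E2f1, the transcription factor that turns on much of this group, was at 7.81, 7.50, 7.86 and 7.70 in H2be-GF against 7.27 through 7.55 to 7.79 in WT. H2be-GF 1 and 3 were above all WT arrays, and the others were not. The change was 0.19 (95% interval -0.03 to 0.42), with a limma adjusted p of 0.661. Ccne1, a cyclin E that pairs with Cdk2 at the start of S phase, was at 7.88, 7.66, 7.67 and 7.77 against 7.55 through 7.81 to 8.16, with a change of -0.09 (limma adjusted p = 0.870). Ccne2, the other cyclin E gene, changed by -0.01 and had the widest spread of the replication genes, an SD of 0.240 within a genotype. The 5 measured replication genes with an E2F match in their window had a median change of -0.065, and the 11 with a window and no match had -0.088.

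**Figure D3:**
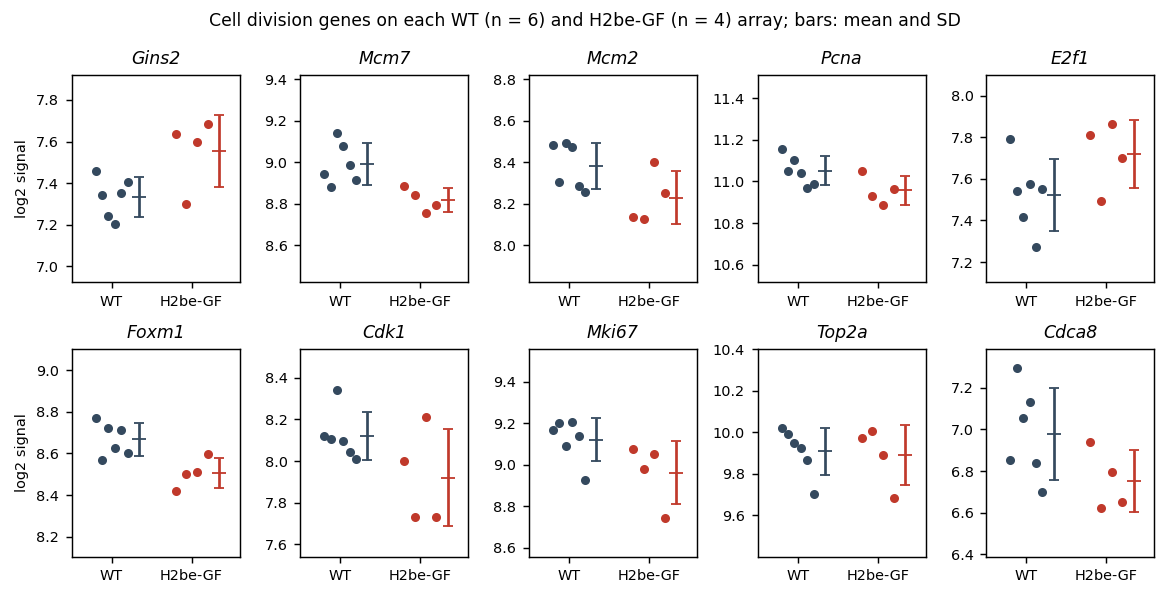
Log2 signal of 10 cell division genes on each array, WT (6 arrays, dark) and H2be-GF (4 arrays, red), with the mean and SD beside the points; the upper row holds replication genes and the lower row mitosis genes. Each panel spans 1 log2 unit, and in every panel the points of the genotypes overlap, with Mcm7 and Foxm1 overlapping least.

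Among the mitosis genes, Mki67 and Top2a are the usual marks of dividing cells. Mki67 was at 9.07, 8.98, 9.05 and 8.74 on the H2be-GF arrays, and WT ran from 8.93 through 9.15 to 9.20. H2be-GF 4 was below all WT arrays, and the other H2be-GF arrays lay between WT 6 and WT 3. The means were 8.96 ± 0.15 (SD, n = 4) and 9.12 ± 0.10 (SD, n = 6), and the change of -0.16 had a 95% interval of -0.34 to 0.02 (limma adjusted p = 0.647). In linear terms the difference from WT lies between -21% and 1.5%.

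Top2a was at 9.97, 10.01, 9.89 and 9.69 against 9.70 through 9.94 to 10.02. Its H2be-GF and WT arrays covered nearly the same range, and the lowest arrays were H2be-GF 4 and WT 6. The change was -0.02 (95% interval -0.20 to 0.16, limma adjusted p = 0.969). A second Top2a probe set averaged 4.90 and was too dim to be tested.

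The mitotic kinases, cyclins and regulators were below 0 at 9 of 10 genes, with a median change of -0.149. Cdk1 was at 8.0, 7.73, 8.21 and 7.73 in H2be-GF against 8.01 through 8.10 to 8.34 in WT. H2be-GF 2 and 4 were far below the WT range, H2be-GF 1 was just under it and H2be-GF 3 was inside it, so the change of -0.20 (95% interval -0.43 to 0.03, limma adjusted p = 0.647) rested on arrays that differed among themselves. The SD was 0.23 in H2be-GF and 0.12 in WT.

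Foxm1 was tighter. This transcription factor of G2 and M genes was at 8.42, 8.50, 8.51 and 8.60 in H2be-GF against 8.57 through 8.67 to 8.77 in WT, and only H2be-GF 4 reached the WT range. Its change was -0.16 (95% interval -0.30 to -0.02), with an unadjusted p of 0.0286 and an adjusted p of 0.522 by limma. Mybl2, the B-Myb factor of the same genes, changed by 0.001. It was the gene of this role whose change was not below 0.

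Cdca8 codes for borealin, a subunit of the chromosomal passenger complex that corrects attachments to the spindle. It was at 6.94, 6.62, 6.80 and 6.65 in H2be-GF against 6.70 through 6.95 to 7.29 in WT, a change of -0.23 (limma adjusted p = 0.647). H2be-GF 2 and 4 were below all WT arrays. The other subunits measured, Birc5 (survivin) and Aurkb (Aurora B kinase), changed by -0.17 and -0.07. Plk1 and Aurka, kinases of spindle assembly, changed by -0.18 and -0.14, and the cyclins Ccna2 and Ccnb2, which activate Cdk1 and related kinases, by -0.12 and -0.05. None passed the test.

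The genes of the spindle and of cytokinesis were below 0 at 5 of 5, with a median of -0.055. They were Nusap1, a microtubule-binding protein of the spindle, at -0.19, Kif23 of the central spindle at -0.13, Tpx2, which activates Aurora A, at -0.05, Kif11, the motor that pushes spindle poles apart, at -0.03, and Kif20a of cytokinesis at -0.003. The unadjusted p of these 5 was 0.127 or above.

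The genes of the kinetochore, the spindle checkpoint and the exit from mitosis stood on both sides of 0, with 3 of 7 below and a median of 0.015. Bub1b, a checkpoint protein, was at 7.86, 8.07, 8.02 and 8.19 in H2be-GF against 7.34 through 8.04 to 8.20 in WT, where WT 3 stood apart at 7.34. The change was 0.09 (95% interval -0.24 to 0.41, limma adjusted p = 0.915), and without WT 3 it was -0.04. Bub1, a kinase of the same checkpoint, was at 7.81, 7.75, 7.77 and 7.33 against 7.31 through 7.61 to 7.96, a change of 0.06 (limma adjusted p = 0.936), and H2be-GF 4 stood well under the other H2be-GF arrays.

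Cenpa, the histone H3 variant that marks centromeres, was at 8.11, 8.12, 8.09 and 7.80 in H2be-GF against 7.80 through 7.99 to 8.32 in WT. Apart from H2be-GF 4 its H2be-GF values lay close together. Cenpf, a protein of the outer kinetochore, was at 7.91, 7.79, 7.91 and 7.33 against 7.44 through 7.73 to 7.97, with H2be-GF 4 again the lowest. Their changes were 0.02 and 0.03 (limma adjusted p = 0.981 and 0.973). Cenpe, a kinetochore motor, changed by -0.03, Cdc20, which activates the ubiquitin ligase of anaphase, by -0.01, and Ube2c, which works with that ligase, by -0.10.

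**Figure D4:**
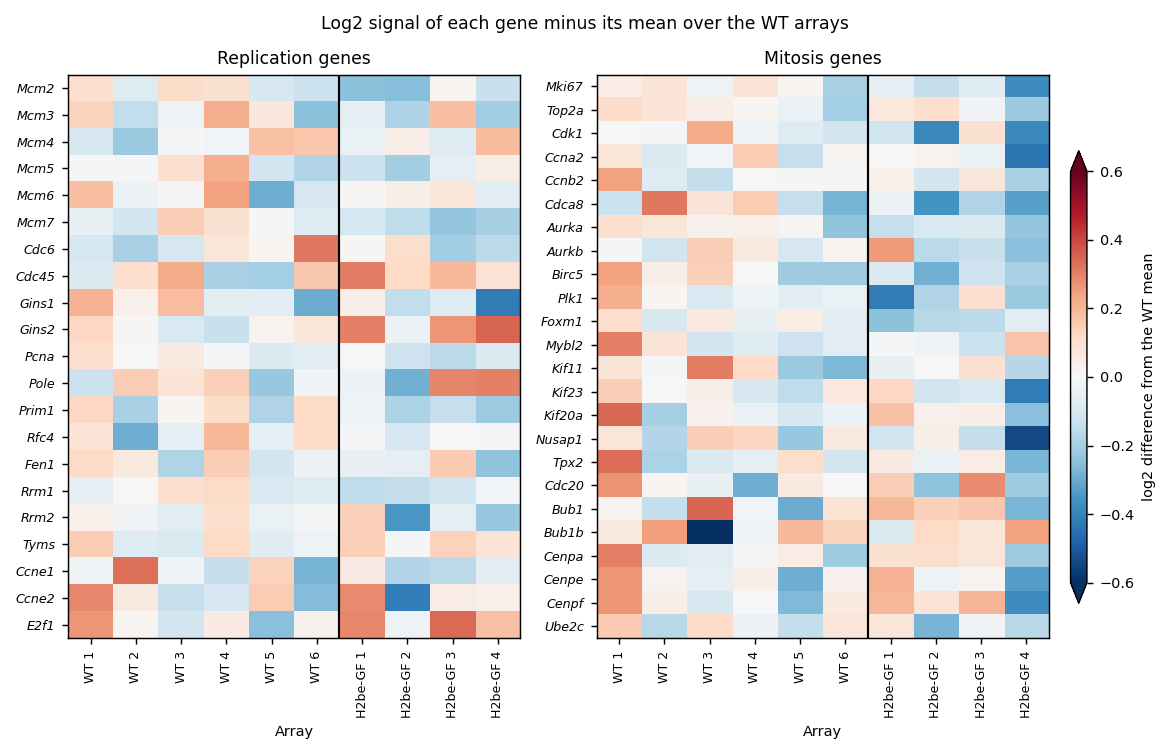
Log2 signal of each measured cell division gene minus its mean over the WT arrays, with genes in rows and the 10 arrays in columns, replication genes on the left and mitosis genes on the right; red is above and blue below the WT mean. The mitosis column of H2be-GF 4 is mostly blue (21 of 24 genes below the mean of the H2be-GF arrays) and that of WT 1 mostly red (highest of the WT arrays at 15 of 24).

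Taken per array, the phases could be set side by side. The level of a phase on an array was the mean over its genes of the log2 signal minus the gene's WT mean. For replication it was 0.06, -0.03, 0.01, 0.06, -0.06 and -0.04 on WT arrays 1 to 6 and 0.03, -0.12, 0.02 and -0.04 on H2be-GF arrays 1 to 4. H2be-GF 2 was the lowest of all and the other H2be-GF arrays lay inside the WT range, so the genotypes overlapped. The H2be-GF mean was -0.03 ± 0.07 (SD, n = 4), and the SD over the WT arrays was 0.05 (n = 6).

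For mitosis the level was 0.15, -0.01, 0.01, 0.00, -0.09 and -0.06 on the WT arrays and 0.01, -0.08, 0.00 and -0.24 on the H2be-GF arrays. WT 1 was the highest and H2be-GF 4 the lowest by a wide margin, while H2be-GF 1, 2 and 3 lay inside the WT range. The H2be-GF mean was -0.08 ± 0.12 (SD, n = 4) and the WT SD was 0.08 (n = 6).

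With 1 array left out, the median shift of the mitosis genes was smallest without H2be-GF 4. Leaving out the lowest array draws a median toward 0 in any case. In the arrays high in Xist, which do not hold H2be-GF 4, the median was -0.054. H2be-GF 4 was the lowest of the H2be-GF arrays at 16 of 24 mitosis genes, beside 29.3% of all probe sets, and at 6 of 21 replication genes. WT 1 was the highest WT array at 15 of 24 mitosis genes, beside 18.6% of all probe sets, and at 7 of 21 replication genes. Without H2be-GF 4 the median change of the mitosis genes was -0.011, with 14 of 24 below 0, and without WT 1 it was -0.041, also with 14 of 24 below 0. Without H2be-GF 1 or H2be-GF 3 it was -0.11 or -0.098. The median of the replication genes was -0.033 without H2be-GF 4 or without WT 4, -0.039 without WT 1 and -0.043 without H2be-GF 2. The sign of both medians was negative in each of these fits. Of the 15 measured mitosis genes with a CHR match, H2be-GF 4 was the lowest H2be-GF array at 10, and of the 4 with a window and no match at 2. Their median changes were -0.052 and -0.104.

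The difference between the phases, mitosis minus replication, showed whether one moved without the other. It was 0.09, 0.02, 0.01, -0.06, -0.03 and -0.03 on the WT arrays and -0.02, 0.04, -0.02 and -0.20 on the H2be-GF arrays. Outside H2be-GF 4 the H2be-GF arrays lay within the WT range. The genotypes differed by -0.051 with all arrays and by -0.00095 without H2be-GF 4. Of the Xist sets, the low one, which holds H2be-GF 4, gave -0.073 and the high one gave -0.029. No p is given for these levels, since the genes were chosen with results known.

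**Figure D5:**
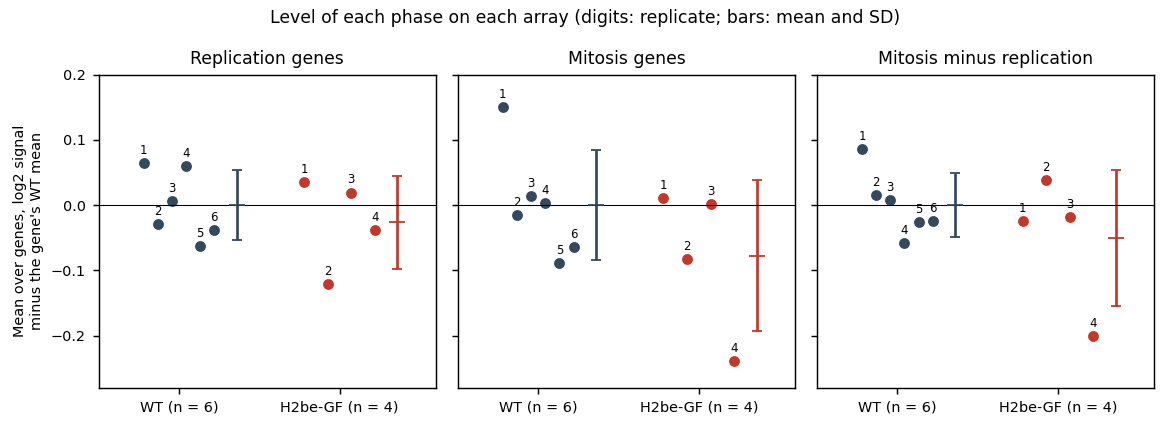
Level of the replication genes, the mitosis genes and their difference on each array, as the mean over genes of the log2 signal minus the gene's WT mean; digits give the replicate number and bars the mean and SD of 6 WT and 4 H2be-GF arrays. The H2be-GF arrays lie among the WT arrays except for H2be-GF 2 for replication (-0.12) and H2be-GF 4 for mitosis (-0.24) and for the difference (-0.20).

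The spread within a genotype was also read by phase. The median SD within a genotype was 0.163 for the mitosis genes, from 0.077 for Foxm1 to 0.263 for Bub1b, and 0.142 for the replication genes, beside 0.135 for the probe sets in the same range of level. This difference in spread was not tested.

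Within the sets defined by Xist, each of 2 H2be-GF and 3 WT arrays, both medians were negative. In the arrays high in Xist the median change was -0.091 for the replication genes (14 of 21 below 0) and -0.054 for the mitosis genes (15 of 24), beside -0.0051 for all probe sets. In the arrays low in Xist, which include H2be-GF 4, it was -0.028 (13 of 21) and -0.057 (19 of 24), beside 0.017 for all. By limma 0 of the 45 genes were called in either set, beside 0% of all probe sets. Those at an unadjusted p under 0.05 were Mcm2 (-0.29), Birc5 (-0.33) and Plk1 (-0.35) in the arrays high in Xist, beside 4.8% of all probe sets. In the arrays low in Xist they were Gins2 (0.32), Pole (0.33), E2f1 (0.31) and Cdc6 (-0.32), beside 4.36% of all. A limma test of the difference between the sets called 0 of the 45 genes and reached an unadjusted p under 0.05 at Cdc6 and Pole, beside 2.92% of all probe sets.

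Other genes of the cycle were read from wider lists. Of 47 measured further replication genes 0 were called by limma and 0 reached an unadjusted p under 0.05, and the median change was -0.0007. Those with the smallest p were Lig1, the ligase that seals the lagging strand, at 0.14, Orc5 of the origin recognition complex at 0.12, and Chaf1b and Chaf1a of the chromatin assembly factor at -0.25 and -0.15. Of 64 measured further mitosis genes 0 were called, 2 were lower at an unadjusted p under 0.05 (beside 4.07% of all probe sets), and 42 were below 0 (65.6%, beside 47.4% of all) with a median of -0.055. Here too H2be-GF 4 was the lowest array, at -0.17 as a mean over the list, but WT 6 was close to it at -0.13.

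Cks2, a small subunit of the Cdk1 kinase, was at 9.89, 9.96, 9.97 and 9.92 in H2be-GF against 10.02 through 10.15 to 10.19 in WT. Every H2be-GF array was thus below every WT array, at 1 gene of the 64, beside 1.6% of all probe sets. Cks2 has 3 probe sets and only that of the highest mean is given. Whether that one reads this gene or a copy of it is not known here. The change was -0.19 (95% interval -0.32 to -0.07, unadjusted p = 0.00658, adjusted p = 0.380 by limma). Espl1, the separase that cuts cohesin, was at 6.95, 7.22, 7.60 and 7.29 against 7.48 through 7.51 to 7.57. H2be-GF 3 was above all WT arrays and the others below them, and the change was -0.25 (limma adjusted p = 0.544). Of the same list Cenpw of the inner kinetochore and Cdca2, which acts on chromatin at mitotic exit, had changes of 0.32 and 0.26 (limma adjusted p = 0.603 and 0.633).

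Of 15 measured genes that brake the cycle or mark its exit 0 were called by limma, with a median of -0.073 over the list. There was 1 gene higher at an unadjusted p under 0.05, beside 4.35% of all probe sets. This was Cdkn2a, an inhibitor of the G1 kinases, at 8.29, 8.59, 8.30 and 8.42 in H2be-GF against 7.98 through 8.19 to 8.37 in WT, a change of 0.22 (limma adjusted p = 0.551) with overlapping genotypes. Wee1, the kinase that restrains Cdk1, changed by 0.16, Fzr1, an activator of the anaphase ligase in G1, by -0.12 and Gadd45a, a stress-induced brake, by -0.13.

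The lowest p over all the lists of the cycle was that of Myc, a transcription factor that drives cells into the cycle. It was at 7.50, 7.33, 7.44 and 7.24 in H2be-GF against 7.62 through 7.72 to 7.82 in WT. Every H2be-GF array was below every WT array, beside 1.6% of all probe sets, in a gene named for its low p. The change was -0.34 (95% interval -0.50 to -0.18), from 7.72 ± 0.08 (SD, n = 6) to 7.38 ± 0.12 (SD, n = 4). Its unadjusted p was 0.000534 and its adjusted p 0.174 by limma, so it did not pass the test. Mycn, its relative of progenitor cells, was at 6.93, 7.02, 7.24 and 6.86 against 7.10 through 7.27 to 7.34, a change of -0.24 (limma adjusted p = 0.425). Of the 7 genes of this G1 list 0 were called, and Myc and Mycn were lower at an unadjusted p under 0.05, beside 4.07% of all probe sets. The others were Ccnd3 at 0.16, Ccnd1 at 0.07, Ccnd2 at 0.02, Cdk6 at 0.0003 and Cdk4 at -0.05, the cyclins D and their kinases.

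The cells that divide in the MOE were read through listed markers, which are not shown here to be limited to dividing cells. The 8 measured genes listed for globose basal cells, the neuronal progenitors, were Neurog1, Neurod1, Kit, Lgr5, Hes6, Insm1, Top2b and Ezh2. Of these 0 were called and the median change was 0.0095. Neurog1, a proneural factor of late progenitors, was higher by 0.16 and Hes6 lower by 0.14 at an unadjusted p under 0.05 (limma adjusted p = 0.505 and 0.555). Over all probe sets 4.35% were higher and 4.07% lower at that p. The mean of the list ran from -0.05 to 0.07 on the H2be-GF arrays and from -0.11 to 0.07 on the WT arrays, relative to the WT mean, and H2be-GF 4 was the lowest H2be-GF array. Of 5 genes of horizontal basal cells 0 were called, with a median of -0.154. Krt15, a keratin, was the one at an unadjusted p under 0.05, beside the same 4.07%, with a change of -0.54 (limma adjusted p = 0.296). Single genes of the cell type lists are named here with their values known.

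Dissected MOE also holds bone with dividing marrow. Of 11 measured genes of marrow progenitors 9 were below 0, beside 47.4% of all probe sets, and 0 were called, with a median of -0.189. Prtn3 and Cebpe were lower at an unadjusted p under 0.05, beside 4.07% of all probe sets. The mean level of the marrow list ran from 7.97 to 8.15 (log2 signal) on the H2be-GF arrays and from 7.99 to 8.49 on the WT arrays. Of 13 listed genes of erythroid cells 5 were measured, all 5 below 0 (beside the same 47.4%) with a median of -0.306. None was called, and Alas2, Epb42 and Klf1 were lower at an unadjusted p under 0.05, beside the same 4.07%. Their mean erythroid level ran from 7.34 to 7.73 against 7.42 to 7.98. None of either list was at 0 on any array. On H2be-GF 4, where the mitosis genes were lowest, the marrow list stood at -0.10 and the erythroid list at -0.29 relative to WT, and neither was the lowest of the H2be-GF arrays there. On WT 1 they stood at -0.05 and 0.12. The part of marrow cells in the levels of the cell division genes was not tested.

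Of the other cell types, 13 genes of mature olfactory neurons had a median change of -0.099, with 0 called. Cnga4 and S100a5 were lower at an unadjusted p under 0.05, beside 4.07% of all probe sets. Omp, Cnga2, Rtp1 and S100a5 were lower on every H2be-GF array than on every WT array, beside the 1.6% above. So were Krt15 of horizontal basal cells and Tekt1 of ciliated cells. Dnah11 of ciliated cells and Lhx2 of immature neurons were higher on every H2be-GF array, beside 1.29% of all probe sets. Omp, the defining marker, stood at 12.88 ± 0.04 over the WT arrays (SD, n = 6) and 12.78 ± 0.03 over the H2be-GF arrays (SD, n = 4; limma adjusted p = 0.659). In the transgene only the coding part of the Omp region was swapped. Whether the Omp probe set also reads the transgene transcript is not known here. Of 10 genes of immature neurons, the daughters of the divisions, the median was -0.0014, and Lhx2, a LIM homeobox factor, alone was called, with a rise of 0.37 (limma adjusted p = 0.0425). The call of Lhx2 was lost without any 1 of the 10 arrays (adjusted p 0.0665 to 0.190), and with centring on the array median, a second quantile normalization, the Xist set as covariate or the replicate block (0.149, 0.0637, 0.0756 and 0.592), at changes of 0.35 to 0.38. Medians were 0.023 for 7 genes of sustentacular cells, -0.157 for 7 of respiratory ciliated cells, -0.059 for 11 of white blood cells, -0.051 for 7 of bone and cartilage and -0.022 for 7 of skeletal muscle, with 0 called in each. In the ciliated list Foxj1, Dnah9, Rsph1, Ccdc39 and Tekt1 were lower and Dnah11 higher at an unadjusted p under 0.05 (4.07% and 4.35% of all probe sets), and so were Ptprc of white blood cells (higher) and Myh1 of muscle (lower). The part of these cells in the levels of the cell division genes was not tested.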

How the data were processed

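The authors processed the array scans in Affymetrix Expression Console by IterPLIER with sketch-quantile normalization, having looked for outliers with arrayQualityMetrics, and log2 signal values were deposited (0 to 14.2, with 95 to 157 values at exactly 0 per array). Tool versions and the genome build are not given in the sources used here. Quantile normalization gives all arrays nearly one distribution, and a change shared by most genes would be hidden.

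Of 35556 probe sets, the platform annotation gave 21789 a single symbol, 1621 several and 12146 none. For 21698 of the first the symbol was brought up to date by Entrez ID from RefSeq (GRCm38.p6). A gene was read from its probe set of highest mean. H2be-GF was compared with WT in a two-sided limma fit without covariates (version 3.58.1, lmFit then eBayes, R 4.3.3) of 23194 probe sets that had a symbol and a mean above 5. Adjusted p-values are those of Benjamini and Hochberg, and 0.05 was the threshold. All measured cell division genes passed this filter. The procedure was tested on simulated data, with noise drawn independently for each probe set and changes larger than those of the cell division genes. It gives no measure of the power to call changes as small as theirs. The number of arrays limits the precision.

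The genes, lists and motifs were chosen with earlier results of these data known. Given array by array are Mki67, Top2a, Pcna, Mcm2, Cdk1 and Ccne1 whatever their values, and of each phase the 4 genes higher and the 4 lower in H2be-GF with the smallest unadjusted p. Of each wider list of the cycle the 2 higher and the 2 lower are named. As alternatives the fit was repeated with other normalizations, with 16 added before taking logs, with another variance model, with weights on arrays, with a replicate block, by Xist set, with other filters on dim probe sets, with another summary per gene, without E2f1, Foxm1 and Mybl2, and without each array in turn. Whether replicate numbers pair the arrays is not known. The correlation of same-numbered arrays' deviations was 0.53, 0.22, -0.42 and 0.26 for numbers 1 to 4, and differently numbered arrays were not compared. Python 3.11.15, pandas 2.3.3 and matplotlib 3.10.9 were used for summaries and plots.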

Additional observations from a re-analysis of the deposited data

Results flagged for a closer look

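Of 44 groups of arrays tested over the genes given array by array and the phase levels, 4 held an array far from the others of its genotype, and chance gives about 1 in 20. Cdk1 was highest on WT 3 at 8.34 (log2 signal), away from the other WT arrays. Bub1b was lowest on the same array at 7.34. Bub1 was lowest on H2be-GF 4 at 7.33 and Cenpa was lowest on H2be-GF 4 at 7.80, each away from the other H2be-GF arrays. All 4 were single genes, and no phase level was flagged, that of H2be-GF 4 for mitosis included.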

How the results depend on the processing

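No cell division gene was called by limma under any of the 22 alternatives, where the smallest adjusted p was 0.341 for a replication gene and 0.373 for a mitosis gene, or without E2f1, Foxm1 and Mybl2 (medians -0.065 and -0.064). The number of all probe sets called was 20 as reported, 0 within either Xist set, 36 with a mean above 7, 114 with a trended and robust variance, and 11 to 19 with 1 array left out. The median change of the replication genes ran from -0.091 to -0.028 and that of the mitosis genes from -0.11 to -0.011, without a change of sign. The number of mitosis genes at an unadjusted p under 0.05 by limma was 1 as reported and depended on the setting. It was 5 with centring on the array median, with a second quantile normalization or without WT 6, and 0 with a trended and robust variance. The share of all probe sets at that p in these fits is not given here. Over the wider cycle lists the median was -0.036, or 0.0020 in the arrays low in Xist and -0.00030 without H2be-GF 4.

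With the replicate number as a block, which the data do not show to pair the arrays, the medians were -0.086 for replication and -0.109 for mitosis, with 0 called among the cell division genes and 5 among all probe sets, and Cenpf and Cenpa turned to -0.027 and -0.027.

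With 1 array left out, mitosis minus replication ran from -0.081 to -0.00095. The cause was not tested. Genes with a change near 0 turned in sign with 1 array left out. Top2a ran from -0.061 to 0.047, Bub1b from -0.036 to 0.144, Bub1 from -0.0020 to 0.17, Cenpf from -0.033 to 0.160 and Cenpa from -0.027 to 0.090. Top2a was 0.043 as the mean of its probe sets and 0.0034 in the arrays high in Xist. In the arrays low in Xist Cenpf was -0.017 and Cenpa -0.015, and with centring on the array median Cenpa was -0.0037. None of these was called. The share of mitosis windows with an E2F match was 0% in the shorter window.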
